A study of Solanum lycopersicum x Solanum pennellii and Solanum lycopersicum and Solanum pennellii with 305 samples.

Results

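Aux/IAA proteins are the repressors of the auxin response. They bind the auxin response factors (ARFs) on the promoters of auxin-responsive genes, and auxin brings them to the TIR1/AFB receptors, after which they are degraded and the genes are released. Many Aux/IAA genes are themselves induced by auxin, and in the root tip the pathway acts in cell division, elongation and the bending of the root towards gravity. Described here are 10 tomato Aux/IAA genes that lie singly on 6 chromosomes, of the 29633 genes in the deposited table. They are the listed Aux/IAA genes outside the groups of neighbouring copies on chromosomes 3, 6 and 9. Identifiers were matched on the gene part, and all 10 were found. In common usage Solyc04g076850 is IAA9, Solyc09g065850 is IAA3, Solyc12g007230 is IAA8 and Solyc06g084070 is IAA2. The files pair no names with identifiers, so the other 6 are given by identifier: Solyc01g097290, Solyc06g066020, Solyc07g008020, Solyc09g064530, Solyc09g090910 and Solyc12g096980. Loss of IAA9 function in tomato is known for fruit that sets without pollination and for simple leaves, and IAA3 for its part between the auxin and ethylene responses.

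Expression was measured by RNA-seq in root tips of 1 cm, pooled by 7 to 14, from seedlings 3 to 4 days after germination. The samples were 75 introgression lines (ILs), each with a segment of the wild tomato S. pennellii in an M82 background, the donor S. pennellii itself (3 libraries), and the cultivated parent M82 (4 libraries). Of the 77 genotypes, 74 had 4 libraries and 3 had 3, and the ILs together had 298. The replicate numbers stand for 4 growth times, and the lines carry nested and overlapping segments, so lines of 1 chromosome are not independent carriers of an allele.

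Between 683199 and 11338423 reads were counted on genes per IL library (median 4286682), between 4174630 and 5659441 per S. pennellii library and between 3078847 and 4835467 per M82 library. At the median depth of the ILs 1 read equalled 0.234 CPM (counts per 1e6 mapped reads), so the genes near 1 CPM rest on few reads. All 5 root markers checked were present, and their summed level was 301 to 347 CPM in S. pennellii, 250 to 450 CPM in the ILs and 301 to 343 CPM in M82. The 6 measured markers of green shoot tissue (of 8 listed) summed to 54.7 to 188 CPM in S. pennellii, 12.8 to 160 CPM in the ILs and 31.8 to 53.7 CPM in M82, and none was at 0 in any of these groups. CPM are per gene and not per length, so levels are compared between genotypes and not between genes.

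The first comparison asked whether these repressors differ between the parents. Of the 9 members with enough reads to test, 3 were higher in S. pennellii (IAA2, Solyc12g096980 and Solyc09g090910), 1 was lower (Solyc09g064530), and 5 did not pass an adjusted p of 0.01 (edgeR's quasi-likelihood test, Benjamini-Hochberg over all genes tested). That share of the members stands beside 35.6% of all 19591 tested genes that passed in this comparison, with 17.8% higher and 17.9% lower. The median log2 fold change was 0.19 over the 9 members and -0.05 over all tested genes. For these 4 members the libraries of S. pennellii and M82 did not overlap, as was the case for 48.9% of all tested genes. Reads of S. pennellii were mapped to S. pennellii sequence and reads of M82 to M82 sequence, and the part of mapping in these differences was not tested. The green shoot markers also moved between the parents, with sums of 54.7 to 188 CPM in S. pennellii, all above the 31.8 to 53.7 CPM in M82, and with 2 of the 4 tested markers called higher and 1 lower in S. pennellii. Of the 5 root markers 1 was called higher and 0 lower in S. pennellii. The part of these markers was not tested either.

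IAA2 (Solyc06g084070, chromosome 6) had 3.53, 5.52 and 4.48 CPM in S. pennellii, against 1.60, 1.59, 0.821 and 1.05 CPM in M82. Every S. pennellii library was above every M82 library, by means of 4.51 ± 0.991 CPM (SD, n = 3) and 1.27 ± 0.392 CPM (SD, n = 4). Its log2 fold change was 1.82 (SE, an approximate standard error, 0.39, adjusted p = 2.5e-05, edgeR). Each SE was worked back from the test, as the absolute log2 fold change over the square root of its F statistic. It rests on 70 reads in S. pennellii and 21 reads in M82. IAA2 was the 1 member called in every alternative that tested it.

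Solyc12g096980, on chromosome 12, had 6.13, 5.32 and 5.47 CPM in S. pennellii, against 2.88, 4.37, 1.64 and 1.68 CPM in M82. The S. pennellii libraries were tightly grouped and the M82 libraries were spread, with no overlap. This is a log2 fold change of 1.05 (SE 0.32, adjusted p = 0.004, edgeR). Without M82 replicate 4 it was 0.86 (adjusted p = 0.034), without M82 replicate 3 it was 0.95 (adjusted p = 0.015), and DESeq2 on the 2 genotypes alone gave an adjusted p of 0.029.

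The 2 called members of chromosome 9 moved in opposite directions. Solyc09g090910 had 28.0, 26.2 and 23.5 CPM in S. pennellii, against 19.8, 14.5, 18.6 and 17.2 CPM in M82. All S. pennellii libraries were higher (log2 fold change 0.57, SE 0.18, adjusted p = 0.0065, edgeR). Solyc09g064530 had 9.42, 7.88 and 9.62 CPM in S. pennellii, against 10.9, 16.9, 17.0 and 13.2 CPM in M82. All S. pennellii libraries were lower, although the lowest M82 library lay close to them (log2 fold change -0.70, SE 0.20, adjusted p = 0.0019, edgeR). Both calls were lost in some fits that lacked 1 replicate number, either in M82 or in all other genotypes, with the same sign. Solyc09g090910 was lost without replicate 1 or replicate 3 of the genotypes other than M82 (log2 fold change 0.57 and 0.56, adjusted p = 0.011 and 0.03) and without M82 replicate 2 or M82 replicate 4 (0.49 and 0.57, adjusted p = 0.044 and 0.017). Solyc09g064530 was lost without replicate 1 or replicate 3 of the genotypes other than M82 (-0.68 and -0.61, adjusted p = 0.012 and 0.032), without M82 replicate 2 or M82 replicate 3 (-0.61 and -0.57, adjusted p = 0.014 and 0.022), and by DESeq2 on the 2 genotypes alone (-0.66, adjusted p = 0.029).

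IAA9 (Solyc04g076850, chromosome 4) had 402, 457 and 430 CPM in S. pennellii, against 401, 407, 371 and 361 CPM in M82. The ranges overlapped, and the log2 fold change was 0.16 (SE 0.08, adjusted p = 0.11). With only genes of a mean of at least 5 CPM in the fit it was 0.24 (adjusted p = 0.0083). IAA3 (Solyc09g065850) had 13.0, 14.4 and 14.6 CPM in S. pennellii, against 13.8, 12.7, 8.76 and 13.7 CPM in M82 (log2 fold change 0.19, SE 0.26, adjusted p = 0.57). IAA8 (Solyc12g007230) had 13.9, 14.0 and 11.8 CPM in S. pennellii, against 14.1, 13.1, 15.3 and 13.2 CPM in M82 (log2 fold change -0.08, SE 0.17, adjusted p = 0.74). For IAA3 and IAA8 the parents' libraries were interleaved, and the SEs allow changes of either sign.

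Solyc01g097290, on chromosome 1, had 32.3, 25.2 and 25.5 CPM in S. pennellii, against 24.6, 18.5, 28.8 and 19.1 CPM in M82 (log2 fold change 0.29, SE 0.20, adjusted p = 0.25). Solyc07g008020, on chromosome 7, had 0.943, 0.985 and 0.497 CPM in S. pennellii, against 1.28, 0.795, 0.821 and 0.841 CPM in M82 (log2 fold change -0.20, SE 0.57, adjusted p = 0.80). Each of these 7 libraries held 3 to 5 reads of Solyc07g008020, so small changes were not detectable at this depth.

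**Figure D1:**
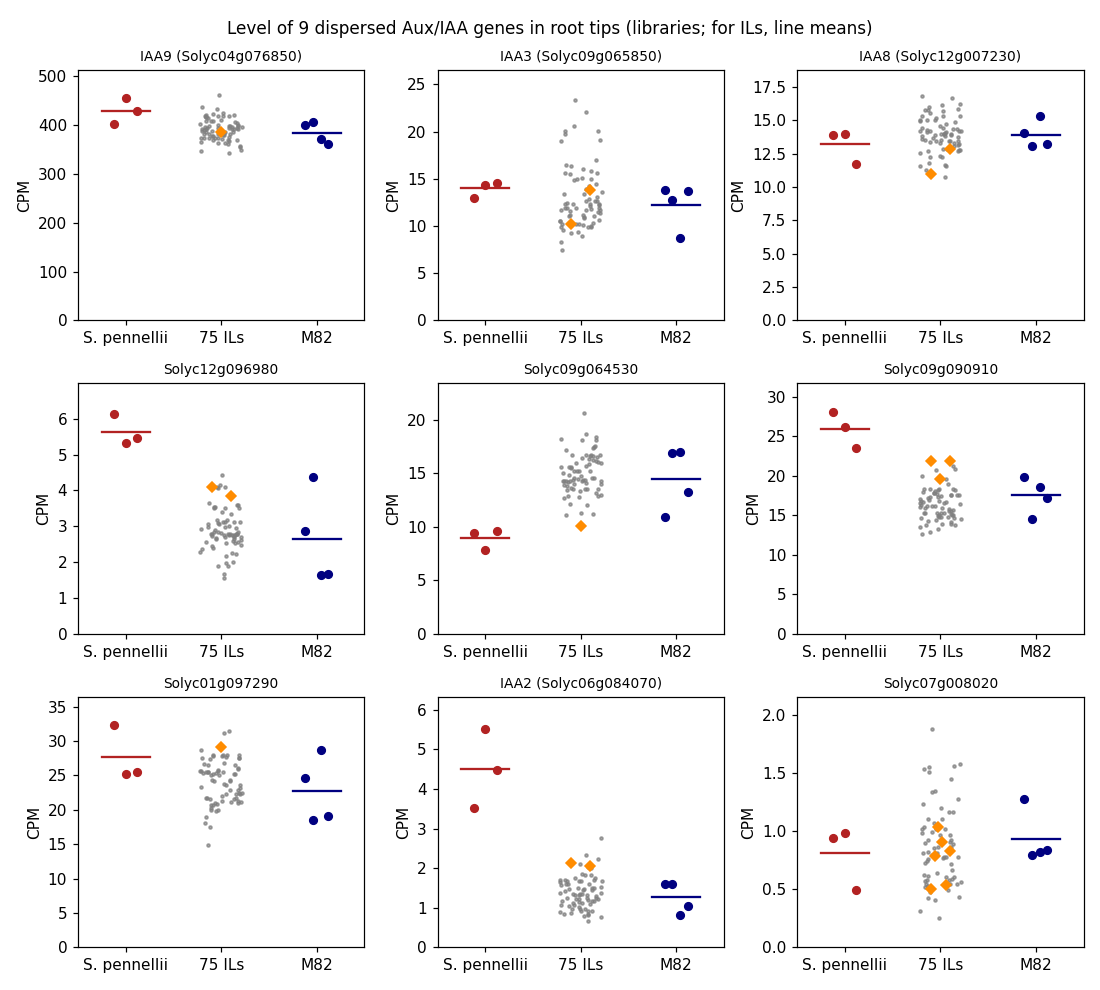
Level of the 9 tested members in CPM, on linear axes from 0. Red points are the 3 S. pennellii libraries and blue points the 4 M82 libraries, each with a line at the mean, and grey points are the means of the 75 ILs, with lines that carry the S. pennellii allele of the gene as orange diamonds (by the labels of the neighbouring genes). IAA2 lies at 3.53 to 5.52 CPM in S. pennellii, above every IL mean and every M82 library.

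A line whose segment holds the gene has its S. pennellii allele in an M82 background, together with the other S. pennellii genes of that segment. The comparison is thus of segments that hold the gene and not of its allele alone. Reads of the gene were mapped to S. pennellii sequence in such lines and to M82 sequence in lines of other chromosomes. The part of mapping in the carrier differences was not tested. The deposited cis and trans labels mark, per line, which called genes lie in the introgression. A first rule took as carriers all lines in which a member lies between the first and the last gene labelled cis, compared with the mean of all ILs of other chromosomes. By that rule 0 of 9 members passed an adjusted p of 0.01 (edgeR), and 4 had an unadjusted p under 0.05. With M82 as the reference of the same lines 0 members passed as well. Over all genes tested in these 9 comparisons 6.46% passed. This rule took in lines in which the nearest labelled genes on both sides of the member were labelled trans. A stricter rule, chosen after the data had been seen, asked that the nearest labelled gene on each side be labelled cis. It leaves 1 to 6 lines per member, and 2 of 9 members passed, Solyc09g064530 and Solyc09g090910. Of all genes tested in the 9 comparisons 5.22% passed. Each such share given for carriers counts genes inside and outside the segments, while every member was placed inside by the rule. The share among genes inside the segments was not computed, so whether the members passed more often than those cannot be told. The SE and p of each carrier comparison rest on the spread between libraries of a line. They leave out the spread between lines.

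Solyc09g064530 had 1 such carrier, IL9-2. Its libraries held 9.33, 11.7, 11.9 and 7.54 CPM, a mean of 10.11 ± 2.07 CPM (SD, n = 4) and the lowest of the 75 ILs, against a mean of 14.997 CPM over the 66 ILs of other chromosomes. This is a log2 fold change of -0.58 (SE 0.15, adjusted p = 0.0051, edgeR), beside -0.70 in S. pennellii against M82. In this comparison 4.02% of all genes passed. Against the 4 M82 libraries alone the same line gave -0.55 (adjusted p = 0.10), and 2 of its 4 libraries lay below all of M82. The 4 libraries of IL9-2 held 12611970 reads together, against 16312278 in the 4 of M82. Green shoot markers summed to 21.8 to 91.1 CPM in IL9-2, against 31.8 to 53.7 CPM in M82. The part of depth and of these markers was not tested. Leaving out replicate 4 gave -0.41 (adjusted p = 0.12), replicate 1 gave -0.59 (adjusted p = 0.043) and replicate 3 gave -0.68 (adjusted p = 0.012). By the first rule the log2 fold change of the carriers was -0.08 (adjusted p = 0.55, edgeR). Among the lines of the first rule IL9-1 had 17.48 ± 2.401 CPM, IL9-1-3 had 14.3 ± 1.98 CPM and IL9-2-6 had 15.9 ± 1.66 CPM (SD, n = 4 each). These lines and IL9-2 differed from each other in this gene (adjusted p = 0.006, edgeR's F test), as 7.9% of all genes did in such comparisons over the 8 members with at least 2 lines by the first rule. Without any 1 replicate number this call was lost (adjusted p from 0.017 to 0.076). Solyc09g064530 was also low in IL9-3-1 (11.18 ± 3.21 CPM) and IL9-2-5 (12.09 ± 2.52 CPM), which are not carriers by either rule. It was as low in lines of other chromosomes, IL7-2 (11.15 ± 2.646 CPM) and IL4-4 (11.29 ± 2.495 CPM). The SD of its line means over the 75 ILs was 1.942 CPM.

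Solyc09g090910 had 3 carriers by the stricter rule, and all 3 were high. IL9-3 had 23.2, 17.6, 21.9 and 24.7 CPM, IL9-3-1 had 21.7, 19.4, 16.0 and 21.4 CPM, and IL9-3-2 had 22.9, 25.1, 22.4 and 17.2 CPM. IL9-3-2 and IL9-3 had the highest and second highest mean of the 75 ILs and IL9-3-1 was 7th from the top. Lines of other chromosomes lay above IL9-3-1, namely IL7-3 (21.28 ± 7.054 CPM), IL2-3 (20.88 ± 6.945 CPM), IL11-2 (20.72 ± 4.761 CPM) and IL10-1-1 (20.01 ± 8.238 CPM). IL9-2, not a carrier by either rule, had 19.52 ± 8.151 CPM. The SD over the 75 line means was 2.089 CPM. The joint mean of the 3 carriers was 21.1 CPM, against 16.3 CPM over the 66 ILs of other chromosomes (log2 fold change 0.39, SE 0.07, adjusted p = 4.8e-05, edgeR), and 3.53% of all genes passed in this comparison. It was 0.57 in S. pennellii against M82. This call held without each replicate number in turn. Against M82 alone the lines gave 0.33, 0.18 and 0.33, with adjusted p from 0.61 to 0.91, and 8 of their 12 libraries lay above all of M82. With all 5 lines of the first rule the log2 fold change was 0.15 (adjusted p = 0.11, edgeR). IL9-1 (13.8 ± 1.90 CPM) and IL9-1-3 (14.7 ± 2.06 CPM), which that rule also took in, lay at the lower side. The 5 lines differed from each other (adjusted p = 0.00061, edgeR's F test), a call lost without replicate 4 (adjusted p = 0.021).

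**Figure D2:**
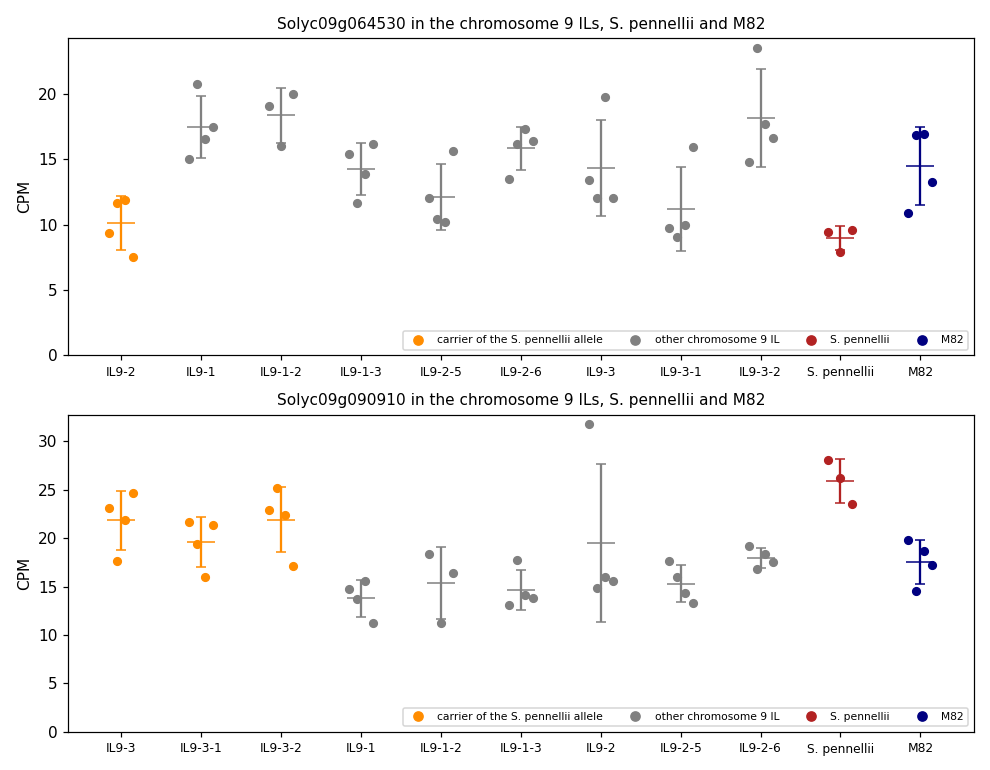
Level of Solyc09g064530 (top) and Solyc09g090910 (bottom) in CPM, for the 9 chromosome 9 ILs, S. pennellii and M82. Points are libraries and bars are mean ± SD; orange marks carriers by the labels of the neighbouring genes. IL9-2 is low for Solyc09g064530, at 7.54 to 11.9 CPM, and IL9-3, IL9-3-1 and IL9-3-2 lie at 16.0 to 25.1 CPM for Solyc09g090910.

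IAA2 had 2 carriers by the stricter rule. IL6-3 had 1.632, 2.202, 1.671 and 2.98 CPM and IL6-4 had 2.13, 2.54, 0.755 and 2.80 CPM, and these lines were 4th and 6th from the top of 75. Their mean was 2.09 CPM, against 1.38 CPM over the 71 ILs of other chromosomes. The difference did not pass the threshold (log2 fold change 0.64, SE 0.20, unadjusted p = 0.0013, adjusted p = 0.068), with 7 of the 8 libraries above all of M82. By the first rule, which adds IL6-2, the log2 fold change was 0.38 (adjusted p = 0.26, edgeR). Against M82 alone IL6-3 gave 0.72 (adjusted p = 0.86) and IL6-4 gave 0.67 (adjusted p = 0.88), beside 1.82 for S. pennellii. The means of both carriers lay between those of the parents. Lines that are not carriers lay there too, with IL2-3 (2.76 CPM), IL4-4 (2.34 CPM) and IL9-3-1 (2.24 CPM) above both carriers. The difference in size between carriers and S. pennellii was not tested.

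Solyc12g096980 had the same 2 carriers by both rules. IL12-3 had 3.39, 2.99, 5.78 and 4.23 CPM and IL12-4 had 2.04, 4.76, 5.29 and 3.28 CPM, a mean of 3.97 CPM, against 2.89 CPM over the 68 ILs of other chromosomes. The libraries of both lines overlapped those of M82, and the log2 fold change of 0.45 (SE 0.17) had an adjusted p of 0.039. Without replicate 1 it was 0.66 (adjusted p = 0.0077), and without replicate 3 it was 0.22 (adjusted p = 0.49).

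IAA9, IAA3 and IAA8, which did not pass the test between the parents, did not pass it in their carriers. IAA9 had 407, 373, 398 and 363 CPM in IL4-3, its carrier, and a mean of 391.8 CPM in the 70 ILs of other chromosomes (log2 fold change -0.02, SE 0.05, adjusted p = 0.81). IAA3 had 16.8, 7.79, 6.79 and 9.36 CPM in IL9-2 and 22.30, 12.23, 11.82 and 9.06 CPM in IL9-2-6, against a mean of 13.0 CPM in the ILs of other chromosomes (log2 fold change -0.09, SE 0.13, adjusted p = 0.79). In both lines replicate 1 was the high library. IAA8 had 9.94, 12.8, 11.6 and 9.56 CPM in IL12-1 and 14.77, 15.17, 10.33 and 11.28 CPM in IL12-2, against a mean of 14.0 CPM in the 68 ILs of other chromosomes (log2 fold change -0.22, SE 0.08, adjusted p = 0.075). All 4 libraries of IL12-1 were below all M82 libraries in IAA8, as were all 4 of IL2-6-5 and of IL4-3-2, which are not carriers. In IL12-2, the other carrier, 2 libraries were below all of M82. The mean of IL12-1 was the second lowest of the 75 ILs, after that of IL9-1-3, also not a carrier.

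Solyc01g097290 had 35.9, 26.8, 33.9 and 19.9 CPM in IL1-3, its carrier, the third highest mean of the 75 ILs, against a mean of 24.0 CPM in the 69 ILs of other chromosomes (log2 fold change 0.30, SE 0.13, adjusted p = 0.31). Solyc07g008020 had 6 carriers on chromosome 7, with means of 0.504 to 1.03 CPM and 0 to 6 reads per library (log2 fold change -0.11, SE 0.18, adjusted p = 0.80).

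**Figure D3:**
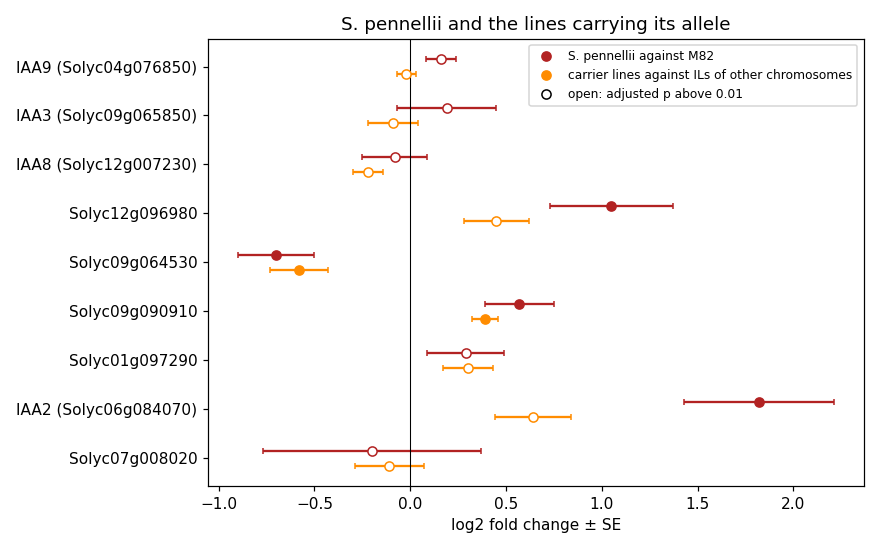
Log2 fold change ± approximate standard error (worked back from the F statistic) of each tested member. Red is S. pennellii against M82. Orange is the lines that carry its S. pennellii allele by the neighbouring labels against the ILs of other chromosomes. That rule was chosen after the data had been seen. The first rule, by which 0 members passed, is not drawn. Filled points passed an adjusted p of 0.01, and only Solyc09g064530 (-0.70 and -0.58) and Solyc09g090910 (0.57 and 0.39) are filled in both.

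The second question was whether a segment anywhere in the genome changes these genes. Against M82, 1 of 675 combinations of member and line passed an adjusted p of 0.01, which is 0.148%, beside 1.47% of all combinations of gene and line. All these comparisons share the 4 M82 libraries. At an unadjusted p under 0.05 the members reached 33 combinations or 4.89%, beside 10.7% of all combinations. The combination called was IAA3 in IL6-2, a line with a chromosome 6 segment, whereas the gene is on chromosome 9.

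IAA3 had 29.6, 18.0, 24.7 and 21.1 CPM in IL6-2, against 13.8, 12.7, 8.76 and 13.7 CPM in M82. All 4 libraries of IL6-2 were above all of M82, with means of 23.3 ± 5.01 and 12.23 ± 2.36 CPM (SD, n = 4 each). This is a log2 fold change of 0.92 (SE 0.25, adjusted p = 0.0047, edgeR). In IL6-2 7.58% of all tested genes passed, 4.44% as higher, which is the third largest number of any line. Its libraries were also shallow, with 1756911 to 3227394 reads, and the green shoot markers summed to 37.3 to 128 CPM in IL6-2, against 31.8 to 53.7 CPM in M82. Of the 4 tested green shoot markers 1 was called higher and 0 lower in IL6-2. The part of depth and of these markers in the difference was not tested. The call was lost without replicate 1 of the genotypes other than M82 (log2 fold change 0.77, adjusted p = 0.031) or replicate 3 (0.89, adjusted p = 0.035), and without M82 replicate 3 (0.81, adjusted p = 0.03) or M82 replicate 2 (0.95, adjusted p = 0.01, just over the threshold).

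With the replicate number as a block, 2 combinations of member and line were called, IAA3 in IL6-2 (log2 fold change 0.92, adjusted p = 0.0026) and IAA3 in IL4-4 (0.71, adjusted p = 0.0086), beside 1.81% of all combinations. IL4-4 had 20.1 ± 7.85 CPM of IAA3 (SD, n = 4), all 4 libraries above those of M82, and was the line with the most calls over all genes, 3917. The green shoot markers summed to 38.7 to 92.3 CPM in IL4-4, against 31.8 to 53.7 CPM in M82, and their part was not tested.

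Against the mean of all ILs of other chromosomes in place of M82, which rests on many more libraries, 17 of 675 combinations of member and line were called, 13 higher and 4 lower. That is 2.52%, beside 3.68% of all combinations of gene and line. IAA3 made up 8 of the 17. It was higher in IL6-2 (log2 fold change 0.88), IL2-1-1 (0.73), IL2-3 (0.70), IL4-4 (0.68), IL9-3-1 (0.64), IL3-5 (0.62) and IL12-3 (0.61), and lower in IL12-2 (-0.76), with adjusted p from 1.7e-05 to 0.0081 (edgeR). These lines have their segments on 6 chromosomes, and IL9-3-1 is not a carrier of the IAA3 locus by either rule. The comparisons share nearly all their reference lines, so they are not independent of each other. Their p-values also leave out the spread between lines.

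IAA3 was also the member that differed most between lines in the F test. Its line means ran between 7.47 CPM in IL12-2 and 23.3 CPM in IL6-2, with a median of 12.24 CPM, a 3.12-fold range. IL2-1-1 (22.1 ± 9.54 CPM), IL2-3 (20.6 ± 5.29 CPM), IL4-4 (20.1 ± 7.85 CPM) and IL9-3-1 (20.0 ± 4.45 CPM) followed IL6-2, and the differences among these neighbours were smaller than their SDs. The F among the 75 ILs was 3.79 for IAA3 (adjusted p = 3.3e-14), above that of 84.6% of all tested genes. Among the other lines called for IAA3, the green shoot markers summed to 85.3 to 160 CPM in IL2-3, 48.0 to 88.5 CPM in IL12-3, 38.7 to 92.3 CPM in IL4-4, 39.5 to 61.0 CPM in IL9-3-1, 35.9 to 61.9 CPM in IL2-1-1, 33.8 to 55.0 CPM in IL3-5 and 21.3 to 28.8 CPM in IL12-2, against 31.8 to 53.7 CPM in M82. By the number of genes called against M82, the 7 lines high in IAA3 ranked 1st (IL4-4), 2nd (IL12-3), 3rd (IL6-2), 5th (IL3-5), 6th (IL2-3), 12th (IL9-3-1) and 15th (IL2-1-1) of the 75 ILs. The part of either in the IAA3 values was not tested.

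**Figure D4:**
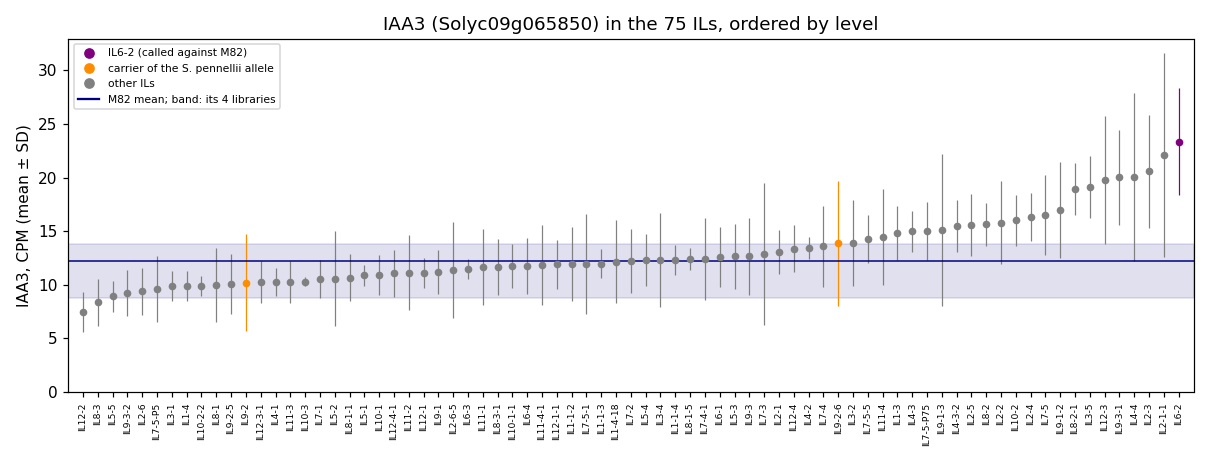
IAA3 in CPM (mean ± SD over 3 or 4 libraries) in the 75 ILs, ordered by level, with the M82 mean of 12.23 CPM as a line and the range of its 4 libraries as a band. IL6-2, in purple, is highest at 23.3 CPM, IL12-2 is lowest at 7.47 CPM, and the carriers of the S. pennellii allele, in orange, lie inside the range of the other lines.

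In all, 7 of 9 members differed among the 75 ILs (adjusted p of at most 0.01, edgeR's F test), beside 70.8% of all tested genes. The exceptions were IAA8 (F 1.48, adjusted p = 0.02) and Solyc12g096980 (F 1.22, adjusted p = 0.15). The median F over all tested genes was 2.01.

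IAA9, the member with the most reads, had the smallest ratio of highest to lowest line mean of the 9 tested members, and the ratios were not adjusted for read number. Its line means ran between 344 CPM in IL9-2 and 461 CPM in IL8-2-1, a 1.34-fold range, where the median tested gene had a 2.19-fold range, and yet the lines differed (F 2.25, adjusted p = 5.3e-06). IL8-2-1 had 461 ± 12.0 CPM, with all 4 libraries above all of M82, a log2 fold change of 0.26 against M82 (adjusted p = 0.055) and of 0.24 against the ILs of other chromosomes (adjusted p = 0.00057). In IL9-2 3 of the 4 libraries were below all of M82 (-0.16 against M82, adjusted p = 0.26).

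IAA8 had line means between 10.8 CPM in IL9-1-3 and 16.8 CPM in IL8-1-5, a 1.56-fold range, with an SD over line means of 1.34 CPM and a pooled SD within lines of 2.16 CPM. Solyc12g096980 had line means between 1.56 CPM in IL12-4-1 and 4.43 CPM in IL11-4, and no IL mean reached the 5.32 CPM of the lowest S. pennellii library. IAA2 had line means between 0.669 CPM in IL11-1 and 2.76 CPM in IL2-3. It was called against the ILs of other chromosomes in IL2-3 (log2 fold change 0.99, adjusted p = 0.003) and IL4-4 (0.83, adjusted p = 0.0096), 2 lines that were also high in IAA3.

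Solyc09g064530 had line means between 10.11 CPM in IL9-2, its carrier, and 20.7 CPM in IL2-4. Against the ILs of other chromosomes IL2-4 was higher (log2 fold change 0.49, adjusted p = 0.0016), and IL4-4 (-0.41, adjusted p = 0.007) and IL9-2 (-0.58) were lower. Solyc01g097290 was lower in IL4-3-2, with 14.9 ± 2.77 CPM and all 4 libraries below all of M82 (-0.59 against M82, adjusted p = 0.048, and -0.71 against the ILs of other chromosomes, adjusted p = 1.6e-05). Its highest line was IL8-2, with 31.5 ± 5.12 CPM. Solyc09g090910 was lowest in the same IL4-3-2, with 12.6 CPM (-0.46 against M82, adjusted p = 0.11). Solyc07g008020 had line means between 0.257 CPM in IL5-5 and 1.88 CPM in IL4-4, and was higher than the ILs of other chromosomes in IL4-4 (1.22, adjusted p = 0.00042) and IL3-5 (1.04, adjusted p = 0.0065), on 32 reads in each line.

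Solyc06g066020, the 10th member, did not pass the filter on low counts. Only 18 reads in 15 libraries of the whole series fell on it. IL6-2, its only carrier by either rule, had 4 of them, 2 each in 2 libraries, of 9663101 reads, which is 0.414 CPM on total reads (95% exact interval 0.113 to 1.06 CPM). S. pennellii had 3 of 14770902 reads (0.203 CPM, interval 0.0419 to 0.594) and IL9-2, no carrier, had 2 of 12611970 (0.159 CPM, interval 0.0192 to 0.573). M82 had 0 of 16312278 reads, which allows up to 0.184 CPM (3 counts), or up to 0.226 CPM by the exact interval used for the others. A further 9 ILs had 1 read each, and 64 ILs had 0. These intervals cover counting error only.

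The members moved together only weakly over the lines. Over the 75 line means of log2(CPM + 0.5), the 36 pairs of tested members had a median Pearson r of 0.15. The highest r were 0.56 between IAA3 and Solyc07g008020 and 0.45 between IAA8 and Solyc01g097290, and the lowest were -0.35 between IAA3 and Solyc01g097290 and -0.31 between Solyc01g097290 and Solyc07g008020. These are descriptions, since lines share segments and the M82 background, and replicates share growth times. Of 14770 genes with a mean of at least 5 CPM, those most like IAA3 over the lines were Solyc12g096570 (r 0.84) and Solyc12g017530 (r 0.82), and those most like IAA9 were Solyc10g008880 and Solyc01g068460 (r 0.60 each). The best match of IAA8 was Solyc12g007170 (r 0.55), a near neighbour by identifier. The best matches of the other members had r between 0.50 and 0.75.

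The other genes of the pathway were counted in the same way. Of the 10 Aux/IAA genes in groups of neighbouring copies, 4 were higher and 1 was lower in S. pennellii, and 5 combinations of gene and line (0.667%) were called in the ILs against M82. Solyc03g121060 was the highest above M82, with 45.4 ± 7.58 CPM in S. pennellii (SD, n = 3), against 13.6 ± 2.66 CPM in M82 (SD, n = 4), and the lower gene was Solyc06g008590, with 0.367 ± 0.354 CPM in S. pennellii, against 1.78 ± 0.819 CPM in M82. Of the 4 TIR1/AFB auxin receptors, 1 was lower in S. pennellii, Solyc06g007830, with 1.04 ± 0.126 CPM, against 3.28 ± 1.36 CPM in M82. In the ILs 3 of the 300 receptor combinations (1.0%) were called, all lower and all in 1 line. Of the 18 tested ARFs (of 22 listed), through which Aux/IAA proteins act, 5 were higher and 4 were lower in S. pennellii, and 33 of 1350 combinations (2.44%) were called in the ILs, 14 higher and 19 lower, in 18 lines. All these counts stand beside 35.6% of tested genes called between the parents and 1.47% of combinations called in the lines. Aux/IAA genes are a family of related sequences, and reads that could map to more than 1 copy were not separated here.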

How the data were processed

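Single-end reads of 50 bp were made from root tip RNA. Per the study's methods, BWA mapped the reads to chimeric coding sequences, with S. pennellii sequence for genes inside an introgression, and SAMtools served to count them. Tool versions are not given in the sources used. The deposited counts are whole reads per gene with no scaling, and all values here start from them. The authors also deposited CPM rounded to whole numbers (a score, not used here) and their own comparisons (log2 ratios and p-values, not used), with a column that labels genes cis or trans, which was used. 9 further per-sample columns were not used, and 1442 genes had no read.

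The genotype was taken from the sample titles, since the cultivar label reads M82 for all 305 samples, S. pennellii included. Count columns B2 to B5 were read as replicates 1 to 4 of the titles.

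The counts went into edgeR 4.0.16 (R 4.3.3). filterByExpr kept 19591 of 29633 genes, TMM factors ran from 0.818 to 1.17, and the quasi-likelihood fit took in all 305 libraries, with genotype alone in the design and a common dispersion from the 5% most abundant genes. P-values were adjusted by Benjamini-Hochberg per comparison, with calls at 0.01 as in the study. CPM are counts over scaled library sizes. The tests were also tried on simulated counts with the same dispersion for all genes, and the outcome is not given here. Replicate numbers pair the libraries, because the study grew each replicate at its own time and pooled its libraries for sequencing. Deviations from genotype means correlated by a mean of 0.09 for libraries of 1 number in different genotypes and by -0.03 for different numbers. In log2 counts the closest pair of libraries had a correlation of 0.988, and none was counted as a repeat.

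All 10 members are described, with each called line, the carriers and, by Pearson r over line means, the most alike genes. The rule asked for 2 such genes per member, and those of IAA3 and IAA9 are named, with the first of IAA8. The members and lists were chosen with earlier results of these data known. Alternatives were DESeq2 1.42.0 size factors, no filter, a mean of at least 5 CPM, the replicate block (at the dispersion of the fit without it), a threshold of 0.05, tests on each genotype and M82 alone, the ILs of other chromosomes as reference, other carrier rules, and fits lacking 1 replicate number, either in M82 or in all other genotypes. The carrier rule by neighbouring labels and the alternatives for IAA3 in IL6-2 were chosen after seeing the data. Gene coordinates, sequences and annotation were not used here.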

Additional observations from a re-analysis of the deposited data

Results flagged for a closer look

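Solyc07g008020 had 1 M82 library far from the others, replicate 1 with 1.28 CPM, where the other 3 had 0.795 to 0.841 CPM. It holds 4 reads, as do 2 of the others. Of the 29 groups of 4 libraries checked for such a gap 1 had one, and chance gives about 1 in 20.

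The lines between the first and the last cis label differed from each other in Solyc09g064530 (adjusted p = 0.006) and in Solyc09g090910 (adjusted p = 0.00061), beside 7.9% of all genes tested in such comparisons. Among these lines the lowest for Solyc09g064530 was IL9-2, at 10.11 CPM. The highest for Solyc09g090910 were IL9-3-2, IL9-3 and IL9-3-1, at 21.9, 21.8 and 19.6 CPM. They are the lines whose neighbouring genes were labelled cis, and that rule was chosen after these data had been seen.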

How the results depend on the processing

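The count of members called in S. pennellii fell to 2 by DESeq2 on the 2 genotypes alone, and ran from 2 to 4 when 1 replicate was left out. Line combinations, 1 in the first fit, came to 2 with the replicate block, 17 with the ILs of other chromosomes as reference and 6 at a threshold of 0.05, and to 0 to 2 with 1 replicate left out. The block changed no other call. Members that vary among the ILs numbered 4 to 6 without 1 replicate. Members called in carriers, 0 by the first rule, came to 1 without a filter (Solyc06g066020 in IL6-2, on 4 reads), 1 at a threshold of 0.05, 2 by the neighbouring labels, and 0 to 1 with 1 replicate left out. Members that differ among carriers, 2 by the first rule, came to 0 to 1 with 1 replicate left out. By the neighbouring labels, which leave fewer lines, they came to 0 of the 6 members that could be tested. Solyc09g064530, with 1 carrier by those labels, could not be tested.

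Signs turned only in comparisons in which the member was not called. With 1 replicate left out, log2 fold changes in carriers ran from -0.05 to 0.02 for IAA9 by the neighbouring labels, and for IAA3 from -0.16 to 0.02 by the first rule and from -0.38 to 0.00 by the neighbouring labels. In S. pennellii they ran from -0.12 to 0.05 for IAA8 and from -0.39 to 0.13 for Solyc07g008020, and IAA8 was at 0.00 with the filter at a mean of 5 CPM. Apart from the alternative's own loss of libraries or genes, the cause was not tested. Of 245 fold changes under the alternatives, 216 kept their sign and their side of the threshold, and of 63 counts 39 stayed within 1.5 times the first.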
